A study of Homo sapiens with 15 samples.

Results

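The amino acid and neurotransmitter transporters described here are the genes whose symbols belong to the solute carrier families SLC1, SLC6, SLC7, SLC36, SLC38 and SLC43, without SLC1A2 and SLC1A3. The rule found 56 members among 19684 genes, of which 5 are in SLC1, 19 in SLC6, 14 in SLC7, 4 in SLC36, 11 in SLC38 and 3 in SLC43. One of the 14, SLC7A6OS, is a gene on the opposite strand that overlaps SLC7A6 and is not itself a transporter, so it was left out of the shares of a family's signal given further on. The members were taken by name, not by their values, though earlier results of these data were known when the families were chosen.

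RNA selected with oligo(dT) beads was sequenced from 5 groups of 3 libraries each, all from the wild-type BC1-GFP line, a single human induced pluripotent stem cell line. The hiPSC group was kept undifferentiated in mTeSR1 medium. The D70-RO and D150-RO groups are neural retina (NR) layers cut from retinal organoids at day 70 and day 150 of differentiation, with 5 organoids pooled per experiment, grown in a medium with 10% serum, 2 mM GlutaMAX, 1% non-essential amino acids and 100 µM taurine. Between these stages the B27 supplement of that medium was replaced by N2, so organoid age and supplement cannot be told apart. The P1 and P5 iMGC groups are cells labelled as Müller glia, which were grown on Matrigel from dissociated day 150 NR layers and were collected on day 5 of passage 1 or passage 5. Their medium had the same shares of serum, GlutaMAX and non-essential amino acids, and its description lists no taurine, so cell source, culture as a flat layer and medium cannot be told apart between iMGCs and organoids. The sources call the libraries of a group independent experiments but differ on how many there were, so p-values measure the spread between these libraries only.

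These families move amino acids and related small molecules across membranes. Many SLC1 and SLC6 proteins use the sodium gradient to clear glutamate, GABA, glycine, taurine or creatine, and in the retina they end transmitter signals at neurons and glia. SLC7 proteins mostly exchange one amino acid for another, several of them only when bound to the heavy chain SLC3A2. SLC38 proteins carry glutamine and other small neutral amino acids, SLC36 proteins move amino acids with protons, often at lysosomes, and SLC43 proteins let substrates flow down their gradient. Müller glia are known for taking up glutamate and GABA and for handing glutamine back to neurons.

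The library totals of expected counts, the reads that a model assigned to genes, ranged from 11349600 to 20398755, and D70-RO replicate 2 was the shallowest. Levels are given as FPKM, fragments scaled to gene length and library size, which can be compared between genes. Fold changes are on a separate scale, the log2 ratio of counts after TMM scaling, each with its standard error (SE), and adjusted p-values are those of the quasi-likelihood test in edgeR, after the Benjamini-Hochberg method was applied over all genes tested. A gene was tested when it had at least 1 FPKM in at least 3 of the libraries compared, and it is said to have risen or fallen when the adjusted p was under 0.05 and the change at least 2-fold. The labelled cell types were checked with marker lists. Pluripotency markers summed to between 3600 and 3740 FPKM in hiPSCs and to at most 17.8 in every organoid and iMGC library, and photoreceptor markers to between 977 and 1080 in D150-ROs. Of 9 Müller markers, 3 rose and 5 fell in iMGCs against D150-ROs, and their sum, to which VIM and APOE contribute, was 2480 to 3480 FPKM against 1510 to 1670. Of these, RLBP1 was at or under 0.09 FPKM in iMGCs and GLUL, glutamine synthetase, lay between 12.3 and 15.2 against 97.6 to 102 in D150-ROs, APOE rose by 2.06 and VIM by 1.89 on the log2 scale, and 7 mesenchymal markers summed to between 2180 and 2720 against at most 7.52 in D150-ROs. The cells are called iMGCs after their label.

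Of the 56 members, 18 never reached 1 FPKM in any of the 15 libraries. They are the monoamine transporters SLC6A2, SLC6A3 and SLC6A4, the glycine transporter SLC6A5, the proline transporter SLC6A7, the betaine and GABA transporters SLC6A12 and SLC6A13, SLC6A14, SLC6A18, SLC6A19, SLC6A20, SLC7A4, SLC7A9, SLC7A13, SLC36A2, SLC36A3, SLC38A8 and SLC38A11. SLC6A14 had no count in any library. Of the 38 others, 37 were tested in at least 1 comparison, and SLC7A14, a lysosomal carrier, was not: it was at 1.00, 0.95 and 0.79 FPKM in D150-ROs and lower elsewhere. The brightest members were SLC38A2, SLC7A5, SLC1A5, SLC7A8 and SLC1A7, which reached 292, 151, 178, 124 and 125 FPKM in their highest libraries.

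**Figure D1:**
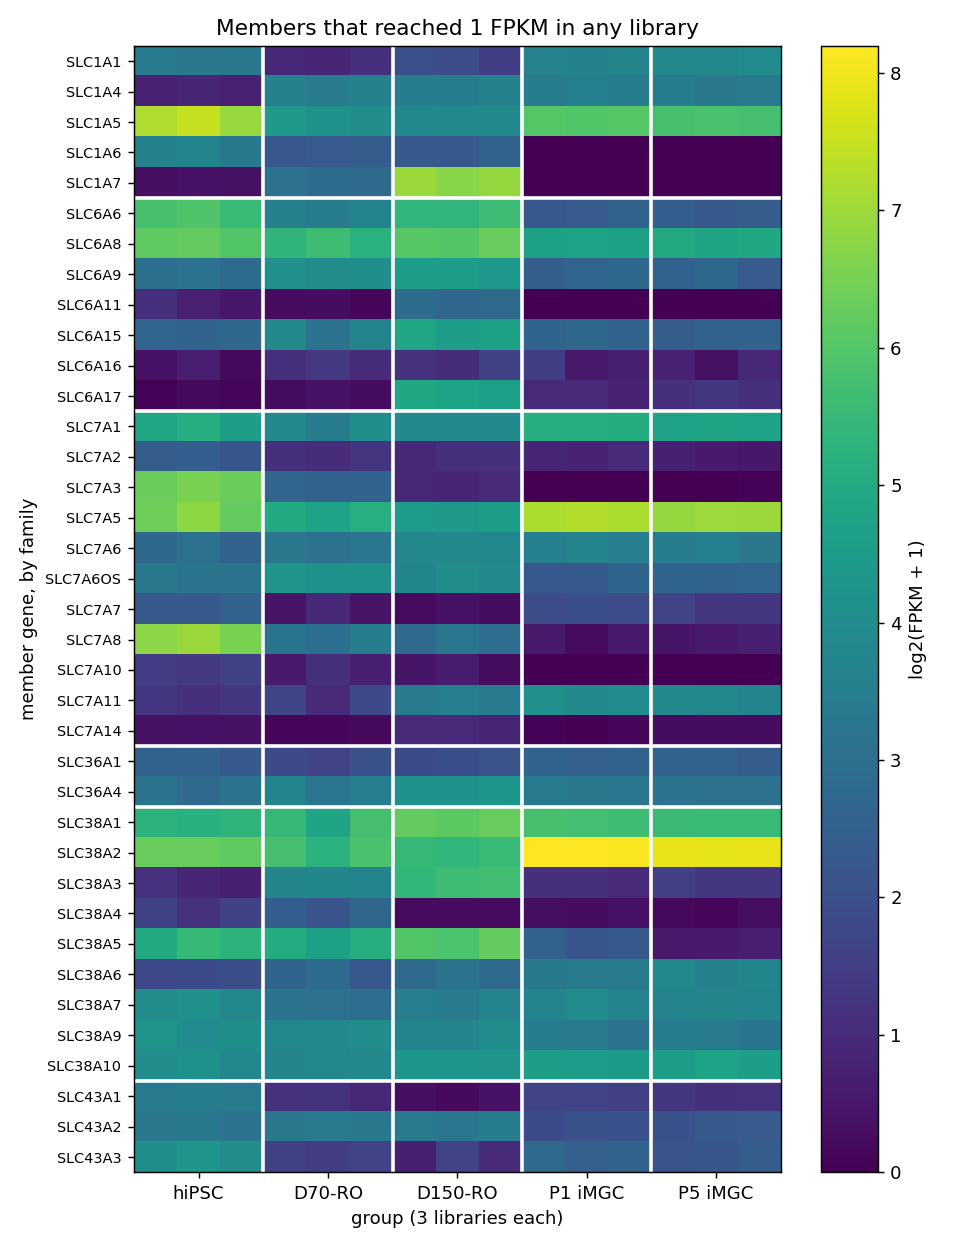
Level of members that reached 1 FPKM in at least 1 library, as log2(FPKM + 1), with 1 row per gene and 1 column per library; white lines separate the 5 groups and the 6 families. SLC1A7 and SLC38A3 are brightest in D150-ROs, SLC7A3 and SLC7A8 in hiPSCs, and SLC38A2 and SLC7A5 in iMGCs.

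The first comparison asked how the transporters changed when hiPSCs became early retina. Most members that moved fell, and these were mainly the exchangers and uptake carriers of neutral and cationic amino acids that were high in hiPSCs. Of 34 members tested, 20 changed, 6 upward and 14 downward. Among all genes tested, 43.5% changed, 22.5% upward and 21.1% downward. In SLC7, 7 of 10 tested members fell and 1 rose, which was SLC7A6OS and not a transporter. SLC1A4, SLC1A7, SLC6A16 and SLC7A7 were under 1 FPKM in every library of 1 group. They entered the test only through the other group, where they are high, so they had to differ.

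SLC7A3, a carrier of arginine and lysine, was at 79.0, 93.0 and 81.3 FPKM in hiPSCs and at 5.44, 5.01 and 5.00 in D70-ROs. SLC7A8, an exchanger of large neutral amino acids known as LAT2, was at 107, 124 and 92.2 FPKM in hiPSCs and at 8.15, 6.97 and 10.2 in D70-ROs. In both genes every hiPSC library was far above every D70-RO library. SLC7A3 fell by 4.17 on the log2 scale (SE 0.13, edgeR adjusted p = 8.61e-10) and SLC7A8 by 3.86 (SE 0.14, edgeR adjusted p = 2.31e-09).

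SLC1A5, the glutamine and neutral amino acid exchanger ASCT2, was at 148, 178 and 121 FPKM in hiPSCs and at 19.97, 17.2 and 15.5 in D70-ROs (log2 change -3.37, SE 0.16, edgeR adjusted p = 1.38e-08). SLC1A4, its close relative ASCT1 for alanine, serine and cysteine, was at 0.71, 0.86 and 0.69 FPKM in hiPSCs and at 10.9, 9.19 and 11.1 in D70-ROs. The pair thus moved in opposite directions, with no overlap between groups for either gene. SLC1A4 rose by 3.59 (SE 0.19, edgeR adjusted p = 2.69e-08), but it entered the test only through D70-ROs, so its non-overlap and rise were fixed by the filter. The share of SLC1A4 in the summed FPKM of the pair went from between 0.477% and 0.567% in hiPSCs to between 34.9% and 41.7% in D70-ROs.

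SLC7A5, the large neutral amino acid exchanger LAT1, was at 82.6, 112 and 73.2 FPKM in hiPSCs and at 31.1, 25.6 and 35.3 in D70-ROs, and it fell 3.25-fold (log2 change -1.70, SE 0.17, edgeR adjusted p = 4.46e-06). SLC7A1, the widespread cationic amino acid carrier, was at 27.7, 33.6 and 22.6 FPKM in hiPSCs and at 13.6, 10.2 and 15.8 in D70-ROs, a 2.34-fold fall that a test against a 2-fold change did not call (edgeR adjusted p = 0.0993). SLC1A1, the glutamate and cysteine carrier EAAT3, was at 9.11, 8.52 and 8.74 FPKM in hiPSCs and at 0.91, 0.83 and 1.21 in D70-ROs. All hiPSC values lay above all D70-RO values, and SLC1A1 fell 9.67-fold. SLC7A7, which exchanges cationic for neutral amino acids, was at 4.04, 3.96 and 4.80 FPKM against 0.35, 0.94 and 0.35, a 12.9-fold fall.

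SLC6A6, the taurine transporter, was at 55.3, 59.9 and 44.7 FPKM in hiPSCs and at 10.95, 10.2 and 12.1 in D70-ROs, and it fell by 2.40 on the log2 scale (SE 0.14, edgeR adjusted p = 5.18e-08). The facilitative carrier SLC43A1 was at 9.70, 9.94 and 9.14 FPKM in hiPSCs against 1.27, 1.32 and 0.87, an 8.48-fold fall. SLC43A3, a relative known to carry purine bases, was at 15.95, 18.5 and 15.4 FPKM against 2.05, 1.82 and 2.17, a 9.38-fold fall, so both lay clear of the D70-RO range, while SLC43A2 did not pass the test at 7.65 to 9.05 FPKM in hiPSCs and 8.48 to 9.74 in D70-ROs. SLC6A8, the creatine transporter, was at 71.3, 73.3 and 62.1 FPKM in hiPSCs and at 40.3, 49.5 and 36.7 in D70-ROs and stayed under the 2-fold limit (log2 change -0.71, SE 0.14). The remaining members that fell were SLC7A2, SLC7A10, SLC1A6 and SLC38A7, by 2.04-fold to 3.46-fold.

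The members that rose included the glutamate transporter EAAT5, which the retina is known for. SLC1A7, which encodes it, was at 0.27, 0.33 and 0.30 FPKM in hiPSCs and at 7.29, 6.43 and 6.20 in D70-ROs, a 20.1-fold rise (log2 change 4.33, SE 0.22, edgeR adjusted p = 1.75e-08). SLC38A3, a glutamine carrier that can work in both directions, was at 1.27, 0.85 and 0.66 FPKM in hiPSCs and at 12.2, 12.7 and 11.6 in D70-ROs. All D70-RO values of both genes were above all hiPSC values, and SLC38A3 rose 10.1-fold. SLC6A16, an orphan SLC6 protein, went from 0.31, 0.61 and 0.12 FPKM to 1.20, 1.57 and 1.08. SLC38A4, a neutral amino acid carrier, was at 2.07, 1.27 and 1.98 FPKM in hiPSCs and at 4.43, 3.52 and 5.49 in D70-ROs, but its rise of 1.17 fell under 2-fold without hiPSC replicate 2 (log2 change 0.99). SLC7A6OS completed the 6 with a 2.04-fold rise. In the same comparison 5 of 6 tested photoreceptor markers and 6 of 8 ganglion cell markers rose and all 6 pluripotency markers fell, and in bulk RNA fewer cells of a type and less RNA per cell cannot be told apart.

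A pair of members sat just under the limit. SLC6A9, the glycine transporter GlyT1, was at 7.19, 7.77 and 6.52 FPKM in hiPSCs and at 16.8, 15.1 and 16.1 in D70-ROs, with no overlap, and its 1.99-fold difference (log2 0.99, SE 0.14) crossed 2-fold under several other settings. SLC6A15, a carrier of branched-chain amino acids and proline, was at 5.33, 5.08 and 5.72 FPKM in hiPSCs and at 13.5, 7.73 and 12.0 in D70-ROs, 1.87-fold with all libraries and past the limit (log2 1.10) without D70-RO replicate 2.

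The second comparison set D150-ROs against D70-ROs, the stage at which the organoid retina matured. The glutamate transporter SLC1A7, the GABA transporter SLC6A11, the taurine transporter SLC6A6, the vesicular carrier SLC6A17 and the cystine exchanger SLC7A11 rose, whereas the glutamate transporter SLC1A6 was at 3.64 to 4.37 FPKM in D70-ROs against 3.78 to 5.13 (log2 change 0.03, SE 0.21). Of 34 members tested, 12 changed, 9 upward and 3 downward, against 33.3% of all genes tested, 16.6% upward and 16.7% downward. In SLC6, 5 of 8 tested members rose and none fell by edgeR (5 rose and none fell by DESeq2 and by limma on log2(FPKM + 1), 4 rose under upper-quartile scaling). In every comparison a member that enters the test only through the group where it is high had to differ, and here SLC6A17, SLC6A11 and SLC38A4 are of this kind.

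SLC1A7 was at 125, 106 and 118 FPKM in D150-ROs, which made it the brightest member of that group. Every D150-RO library was far above the highest D70-RO value of 7.29, and it rose 14.9-fold (log2 change 3.90, SE 0.11, edgeR adjusted p = 5.10e-08). It made up between 78.0% and 80.5% of the summed FPKM of the 5 SLC1 members in D150-ROs, where SLC1A5 had led in hiPSCs with 86.6% to 89.1%. For the glial glutamate transporters outside these members, SLC1A2 was at 17.1 to 19.6 FPKM and SLC1A3 at 27.6 to 28.7 in D150-ROs, both below SLC1A7.

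SLC6A17, which loads neutral amino acids into synaptic vesicles, was at 0.21, 0.32 and 0.20 FPKM in D70-ROs and at 28.97, 26.1 and 23.9 in D150-ROs. It rose by 6.59 on the log2 scale (SE 0.18, edgeR adjusted p = 4.73e-08), 96.5-fold. SLC6A11, the GABA transporter GAT3, was at 0.19, 0.20 and 0.09 FPKM in D70-ROs and at 6.43, 5.46 and 6.14 in D150-ROs. It was higher in every D150-RO library and rose 35.2-fold (log2 change 5.14, SE 0.22, edgeR adjusted p = 3.06e-07).

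For glycine the picture differed between its transporters. SLC6A5, the neuronal glycine transporter GlyT2, had 14, 12 and 3 counts in D70-ROs, and later 57, 77 and 80 in D150-ROs, which is 0.52 to 0.69 FPKM and under the filter, so it was not tested. SLC6A9 was at 23.4, 23.4 and 19.7 FPKM in D150-ROs, above every D70-RO library on the FPKM scale, yet its change on the TMM scale was 0.18 (SE 0.10, edgeR adjusted p = 0.143).

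SLC6A6 returned: it was at 40.8, 40.6 and 47.6 FPKM in D150-ROs, above all D70-RO libraries, and it rose 3.32-fold (log2 change 1.73, SE 0.10, edgeR adjusted p = 1.06e-06). SLC7A11, the cystine and glutamate exchanger xCT, was at 2.26, 0.98 and 2.48 FPKM in D70-ROs and at 9.32, 10.3 and 9.6 in D150-ROs, a 4.32-fold rise (SE 0.26 on the log2 scale, edgeR adjusted p = 8.27e-05). SLC38A3 was at 42.1, 49.4 and 50.6 FPKM in D150-ROs and rose 3.51-fold. For these 3 genes no D150-RO library was as low as any D70-RO library.

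A pair of the 9 rises were near the limit and depended on 1 library and on the processing. SLC6A15 was at 26.9, 23.1 and 24.5 FPKM in D150-ROs and rose 2.08-fold, which became a log2 change of 0.86 without D70-RO replicate 2. SLC1A1 was at 2.96, 2.68 and 1.90 FPKM and rose 2.13-fold, which became 0.94 without D150-RO replicate 1. Under upper-quartile scaling SLC6A15 was at 0.95 and SLC1A1 at 0.99, and with the length trend removed at 0.79 and 0.86. Limma on log2(FPKM + 1) called SLC6A15 but not SLC1A1 (0.82), and the test against a 2-fold change called neither.

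The 3 members that fell were SLC38A4, SLC7A3 and SLC43A3. SLC38A4 was at 0.19, 0.17 and 0.18 FPKM in D150-ROs, far below its D70-RO values, and it fell by 5.13 (SE 0.27, edgeR adjusted p = 8.09e-07), so its highest level of the 5 groups was at day 70. SLC7A3 went on down to 0.93, 0.85 and 1.03 FPKM, a further 6.40-fold. SLC43A3 overlapped between the stages, with 1.82 to 2.17 FPKM in D70-ROs against 0.66 to 2.12 in D150-ROs, and it was not called by limma on log2(FPKM + 1) (adjusted p = 0.0827). SLC7A5, at 21.4, 20.8 and 22.8 FPKM, and SLC1A5, at 13.1, 13.4 and 14.0, were lower than in every D70-RO library without reaching 2-fold (1.69-fold and 1.46-fold), and SLC7A5 passed that limit with the length trend removed (log2 change -1.09, edgeR adjusted p = 5.74e-06). SLC38A1, a glutamine carrier of neurons, was at 43.2, 26.6 and 54.5 FPKM in D70-ROs against 73.4, 69.7 and 77.9, and SLC38A5, which works in both directions, was at 32.2, 24.2 and 33.1 against 61.7, 58.1 and 73.3. Both were higher in every D150-RO library and stayed under 2-fold on the TMM scale (1.41-fold and 1.81-fold), SLC38A5 passing it with limma on log2(FPKM + 1).

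Neuronal marker lists moved in both directions at this step. The 8 photoreceptor markers summed to between 133 and 143 FPKM in D70-ROs and between 977 and 1080 in D150-ROs, with 7 of 7 tested markers higher. The 6 bipolar markers went from between 21.3 and 22 to between 239 and 284, with 5 of 5 tested higher, and the 11 amacrine and horizontal markers from between 16.3 and 19.6 to between 76.9 and 104, with 6 of 10 higher. The 8 ganglion cell markers all fell, from a sum between 144 and 163 to between 9.67 and 12.8 FPKM. Of 9 Müller markers, 4 rose and 1 fell. Their part in the transporter changes was not tested.

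**Figure D2:**
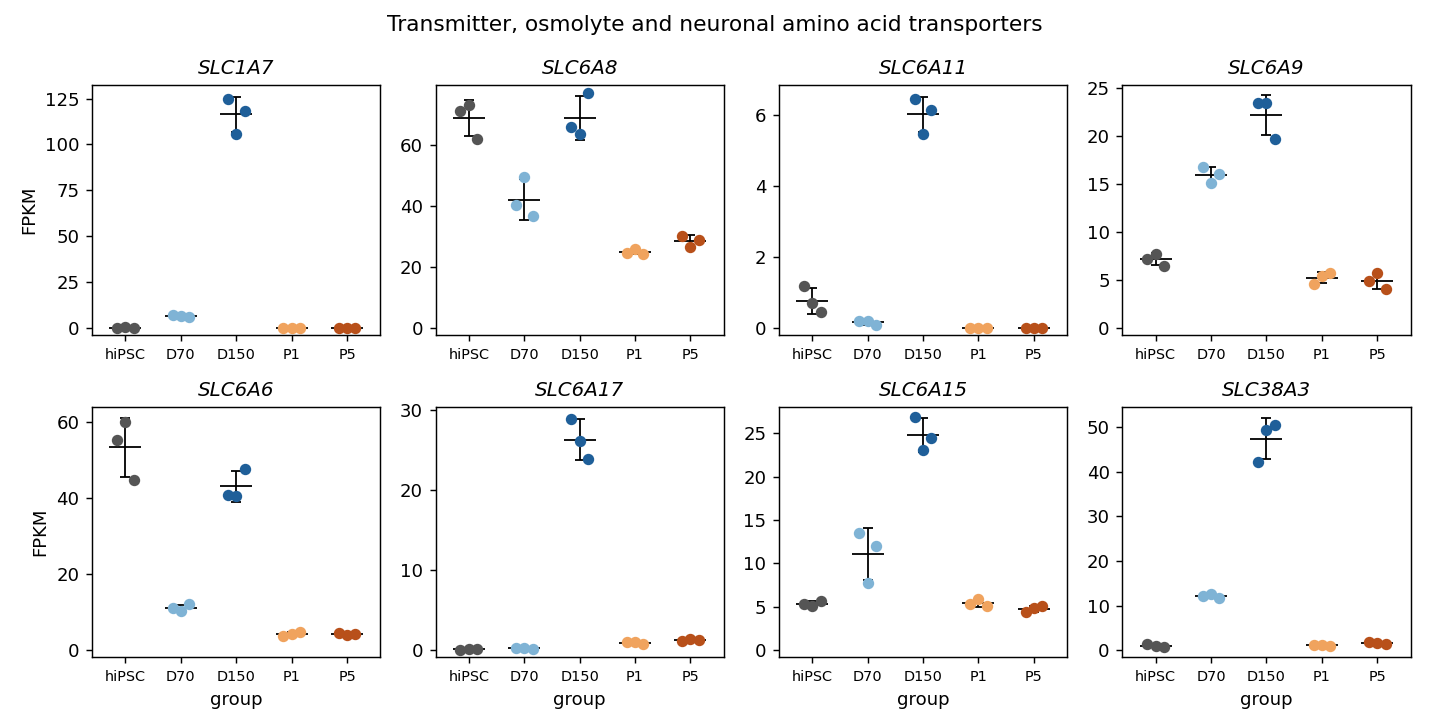
FPKM of 8 transporters of transmitters, taurine, creatine and neuronal amino acids in each library (points), with the group mean (bar) and SD (whiskers, 3 libraries per group); every panel has its own linear axis. All 8 are higher in every D150-RO library than in every D70-RO and iMGC library, and only SLC6A6 and SLC6A8 overlap with hiPSCs.

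The third comparison, D150-ROs against hiPSCs, spans both steps and shares its libraries with the first 2, so its values are not independent of them. Of 37 members tested, 26 changed, 11 upward and 15 downward, against 58.8% of all genes tested, 29.8% upward and 29% downward. Limma on log2(FPKM + 1) called 12 upward and 12 downward instead. Members that entered this test only through the group where they are high, and so had to differ, include SLC1A7, SLC6A17, SLC1A4, SLC43A1 and SLC7A7. SLC7 lost most, with 7 of 10 tested members lower and 1, SLC7A11, higher by edgeR and DESeq2. For SLC7 limma called 6 lower and 2 higher, with SLC7A6 called (1.02) and SLC7A1 not (-0.98). In SLC6 6 of 8 were higher and none lower by edgeR and DESeq2, and limma called 5 higher and none lower.

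Over the whole interval SLC1A7 rose 299-fold (log2 change 8.22, SE 0.14, edgeR adjusted p = 1.42e-12) and SLC6A17, at 0.05, 0.16 and 0.11 FPKM in hiPSCs, 194-fold. SLC38A3 rose 35.5-fold. SLC1A4, which had risen by day 70 and was at 10.2, 10.1 and 11.3 FPKM in D150-ROs, was 11.3-fold above hiPSCs. In the other direction SLC7A3 fell 116-fold, SLC43A1 44.2-fold to 0.27, 0.16 and 0.33 FPKM, SLC7A8 21.9-fold to 5.91, 8.37 and 6.62 FPKM, SLC43A3 20.3-fold to 0.66, 2.12 and 1.01 FPKM and SLC7A7 18.5-fold to 0.17, 0.33 and 0.21 FPKM. SLC6A5 had 3 counts in all hiPSC libraries and 214 in D150-ROs, a ratio with a 95% counting interval of 23.1 to 334.

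SLC6A6 was at 44.7 to 59.9 FPKM in hiPSCs and 40.6 to 47.6 in D150-ROs, which overlap (log2 change -0.67, SE 0.12), but with a trend over gene length removed it was called lower (log2 change -1.63, edgeR adjusted p = 2.24e-08). SLC6A8 was at 63.7 to 77.2 FPKM in D150-ROs and also overlapped with hiPSCs. It led SLC6 in every group, with 32.6% to 65.3% of the family's summed FPKM, but reads of SLC6A8 can be shared with near-identical copies elsewhere in the genome, and those of SLC7A5 and SLC6A6 with related pseudogenes, so these levels are less certain.

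The fourth comparison asked how the iMGCs differed from the D150-RO retina from which they were grown. The glutamate transporter SLC1A7, the GABA transporter SLC6A11, the taurine transporter SLC6A6 and the vesicular carrier SLC6A17 fell, while the glutamate and cysteine carrier SLC1A1 rose. Carriers of one substrate did not move together: of those for glutamine, SLC38A2 and SLC1A5 rose and SLC38A3 and SLC38A5 fell, and of the large neutral exchangers SLC7A5 rose and SLC7A8 fell. Of 34 members tested, 24 changed, 12 upward and 12 downward, against 44.5% of all genes tested, 20.8% upward and 23.8% downward. Members that entered this test only through the group where they are high, and so had to differ, include SLC1A7, SLC6A11, SLC1A6, SLC7A8, SLC7A7 and SLC43A1. Without the filter on low values 12 members rose and 22 fell. On the FPKM scale the median of all genes lay 0.61 lower on the log2 scale in iMGCs, and limma on log2(FPKM + 1) called 8 upward and 15 downward. It did not call the rises of SLC7A11, SLC36A1, SLC38A6 and SLC38A10 or the fall of SLC6A16, and it called falls of SLC6A8, SLC43A2, SLC36A4 and SLC7A6OS. In SLC6, 7 of 8 tested members fell and none rose with edgeR, DESeq2, upper-quartile scaling and limma alike.

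SLC1A7 had 13801 counts in the 3 D150-RO libraries and none in the 6 iMGC libraries, so it was at least 6070-fold lower in iMGCs. SLC6A11 had 1181 counts in D150-ROs and none in iMGCs, at least 520-fold lower, and SLC1A6, the glutamate transporter EAAT4, had 417 counts and none, at least 183-fold lower. SLC6A5, with 214 counts in D150-ROs and none in iMGCs, was at least 94.2-fold lower. Glutamate transporters outside the members followed: SLC1A2 was at or under 0.14 FPKM and SLC1A3 between 0.36 and 1.23 FPKM in iMGCs, both lower by the test.

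SLC6A17 was at 0.98, 1.03 and 0.75 FPKM in P1 and 1.17, 1.43 and 1.22 in P5 iMGCs, low but read in every library, and fell 15.2-fold. SLC38A3 was at 1.13, 1.20 and 1.00 FPKM in P1 and 1.92, 1.5 and 1.47 in P5 iMGCs and fell 23.6-fold (log2 change -4.56, SE 0.16, edgeR adjusted p = 1.51e-10). SLC6A6 was at 3.77, 4.12 and 4.81 FPKM in P1 and 4.52, 3.92 and 4.33 in P5 iMGCs. Every one of these iMGC values was below every D150-RO value, and SLC6A6 fell 6.84-fold (log2 change -2.77, SE 0.06, edgeR adjusted p = 4.03e-12).

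SLC6A9 was at 4.62, 5.39 and 5.73 FPKM in P1 and 4.90, 5.77 and 4.11 in P5 iMGCs and fell 2.66-fold. SLC6A15 was at 4.40 to 5.86 FPKM over the 6 iMGC libraries and fell 3.28-fold, back to its hiPSC level of 5.08 to 5.72 FPKM. SLC7A8 was at 0.52, 0.17 and 0.51 FPKM in P1 and 0.39, 0.52 and 0.63 in P5 iMGCs and fell 11.6-fold. All of these lay below the D150-RO range. SLC38A5 fell 16.3-fold over the 6 libraries, with the passages far apart as described below. SLC6A16, the last of the 12, overlapped with D150-ROs (0.30 to 1.85 against 1.09 to 2.06 FPKM). Among members too low for the test, SLC7A10, the exchanger of small neutral amino acids, had 35 counts in D150-ROs and none in iMGCs (at least 15.4-fold lower), and SLC7A3 had 101 counts and 2, a ratio of between 18 and 558 (95% counting interval).

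On the rising side, SLC38A2, a sodium-coupled carrier of glutamine and alanine that cells are known to induce when amino acids are short, became the brightest member of any group. It was at 43.2, 41.2 and 44.7 FPKM in D150-ROs, at 292, 290 and 278 in P1 and at 243, 239 and 240.4 in P5 iMGCs. Every iMGC library was far above every D150-RO library, and SLC38A2 rose 9.48-fold (log2 change 3.25, SE 0.08, edgeR adjusted p = 8.41e-12).

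SLC7A5 was at 144, 151 and 146 FPKM in P1 and 119, 127 and 123 in P5 iMGCs, against at most 22.8 in D150-ROs, and rose 9.95-fold (log2 change 3.31, SE 0.08, edgeR adjusted p = 1.04e-11). SLC1A5 was at 64.0, 62.0 and 64.5 FPKM in P1 and 55.5, 56.6 and 53.7 in P5 iMGCs, against at most 14.0, and rose 7.42-fold (log2 change 2.89, SE 0.08, edgeR adjusted p = 2.04e-11). SLC7A1 was at 33.6, 33.1 and 32.5 FPKM in P1 and 25.7, 26.7 and 25.2 in P5 iMGCs, against at most 13.9, and rose 3.42-fold. In each of these 3 genes P1, P5 and D150-RO libraries formed separate ranges. SLC3A2, the heavy chain that carries SLC7A5 to the membrane, rose with them by 1.35 on the log2 scale (SE 0.06), a rise that limma on log2(FPKM + 1) did not call.

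SLC1A1 was at 11.4, 11.2 and 12.2 FPKM in P1 and 13.3, 12.8 and 14.4 in P5 iMGCs, above all organoid and hiPSC libraries, and rose 8.01-fold (log2 change 3.00, SE 0.16, edgeR adjusted p = 7.93e-09). It was the only SLC1 glutamate carrier left above 1 FPKM in P1 iMGCs among the members. SLC7A7, at 2.63, 2.93 and 2.70 FPKM in P1 and 2.12, 1.47 and 1.48 in P5 iMGCs, rose 13.6-fold. SLC43A1, at 2.13, 2.17 and 1.96 FPKM in P1 and 1.48, 1.15 and 1.27 in P5, rose 9.77-fold. These rises started from at most 0.33 FPKM in every D150-RO library, and both genes stayed under their hiPSC levels. SLC43A3 rose 6.63-fold, to 3.42 to 6.02 FPKM.

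SLC7A11 was at 16.3, 13.6 and 14.7 FPKM in P1 and 13.6, 12.8 and 11.8 in P5 iMGCs, above every D150-RO library. It rose 2.22-fold (log2 change 1.15, SE 0.08, edgeR adjusted p = 5.70e-08), and on the FPKM scale by 0.46, under 2-fold. SLC36A1 rose 3.38-fold, SLC38A6 2.85-fold and SLC38A10 2.18-fold on the TMM scale. SLC38A1 differed in sign with the scale, since its FPKM was lower in every iMGC library (45.4 to 54.8 against 69.7 to 77.9) while its log2 change on the TMM scale was 0.03 (SE 0.06). SLC1A4, at 8.79 to 10.6 FPKM, and SLC38A9, a lysosomal protein that senses arginine, at 7.63 to 9.96 FPKM, did not reach 2-fold.

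**Figure D3:**
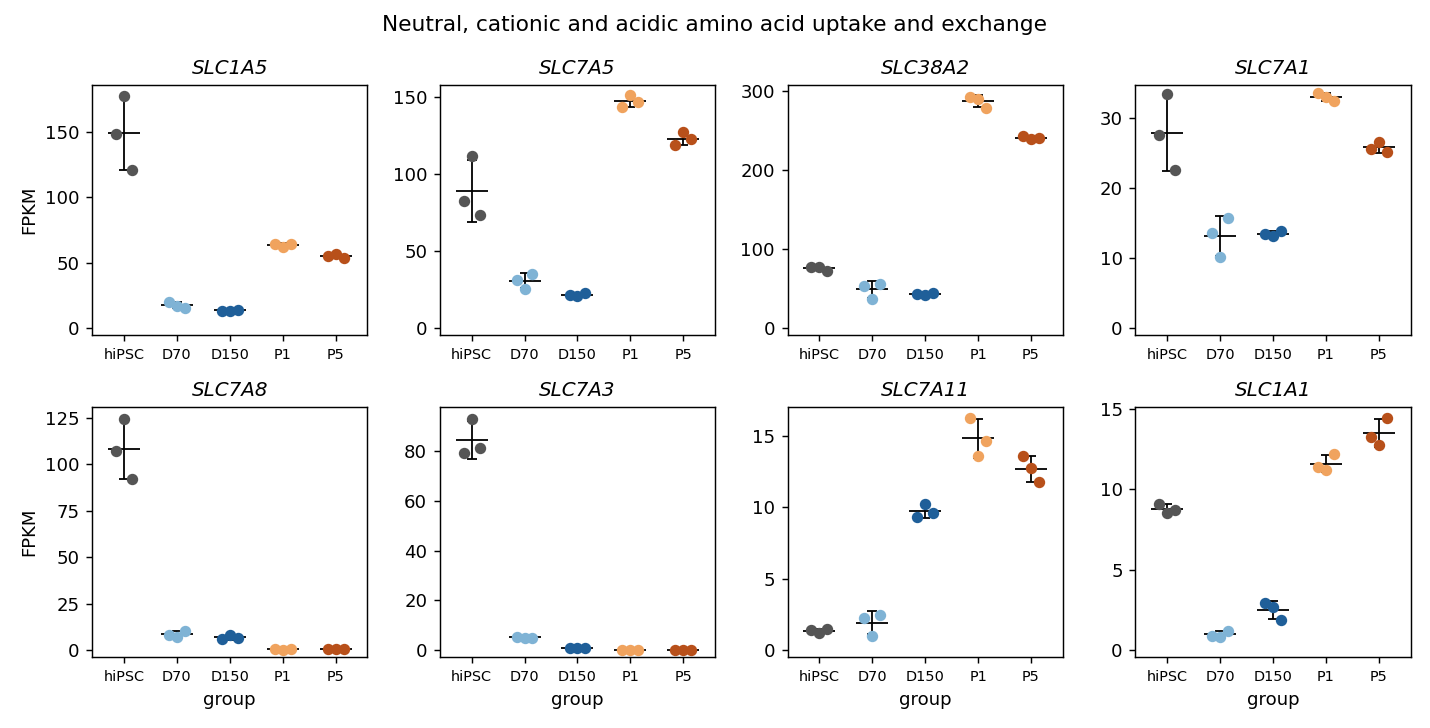
FPKM of 8 members that take up or exchange amino acids, in each library (points), with group mean (bar) and SD (whiskers, 3 libraries per group) on linear axes. SLC1A5, SLC7A5, SLC38A2, SLC7A1 and SLC1A1 dip in the organoid groups and are higher again in iMGCs, while SLC7A8 and SLC7A3 are high in hiPSCs alone.

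Most neuronal marker lists were lower in iMGCs, and only the sum of the ganglion list was not. In iMGCs photoreceptor markers summed to at most 0.56 FPKM with CRX, PDE6H and GNAT1 at 0 in all 6 libraries, bipolar markers to at most 1.08 with VSX1, TRPM1, CA10 and CABP5 at 0, and amacrine and horizontal markers to at most 2.83 with SLC32A1 and TFAP2B at 0. All 7, 5 and 9 tested markers of these lists fell. Ganglion markers summed to between 32.8 and 44.1 FPKM in iMGCs against 9.67 to 12.8 in D150-ROs, with 1 of 3 tested higher and 2 lower. In each passage only 1 of the 8 ganglion markers reached 1 FPKM in every library. POU4F1, POU4F2, ISL1 and ELAVL4 were at 0 in all 6 iMGC libraries. Of 9 Müller markers 3 rose and 5 fell, and all 7 mesenchymal markers rose. Their part in the transporter changes was not tested.

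**Figure D4:**
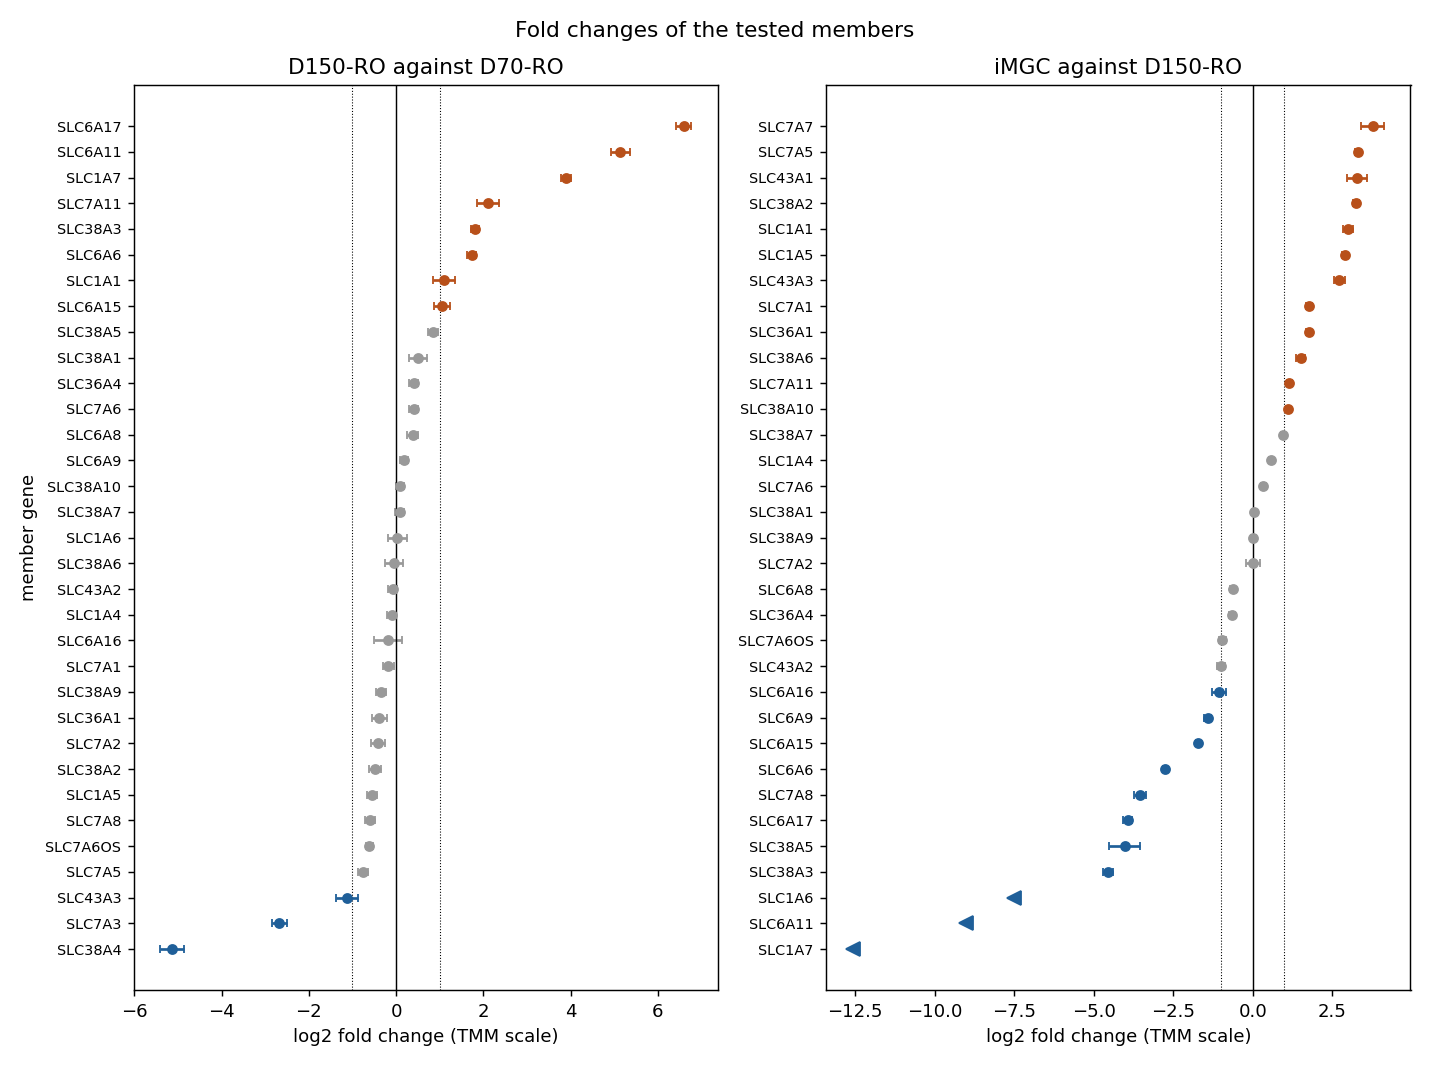
Log2 fold change on the TMM scale with SE for tested members in each of 2 comparisons that share the D150-RO libraries; orange members rose, blue fell, grey did not pass, and dotted lines mark 2-fold. Left-pointing triangles mark members with no count in iMGCs at the bound that 3 counts allow (at least 6070-fold for SLC1A7, 520-fold for SLC6A11 and 183-fold for SLC1A6).

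The fifth comparison asked whether the transporters held between passage 1 and passage 5. Of 27 members tested, 1 changed, downward, against 2.92% of all genes tested, 1.94% upward and 0.977% downward. That member was SLC38A5, a carrier of glutamine, serine and glycine that can release as well as take up its substrates. It was at 4.87, 3.56 and 4.00 FPKM in P1 and at 0.46, 0.51 and 0.60 in P5 iMGCs, without overlap. It fell by 3.08 on the log2 scale (SE 0.23, edgeR adjusted p = 1.32e-10), and it was called with each library left out and by DESeq2 and limma. Every P5 value was under 1 FPKM, so SLC38A5 entered the test only through P1, where it is high, and had to differ. The other settings share that filter or start from the same values and do not check this call independently.

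The other 26 stayed under 2-fold. The next largest differences were in SLC38A3, 1.72-fold higher in P5 (log2 0.78, SE 0.19), SLC43A1, 1.51-fold lower, and SLC6A17, 1.45-fold higher. Several smaller differences were well resolved because the libraries of a passage lay close together: SLC38A2 was lower in every P5 library by 0.21 (SE 0.03, edgeR adjusted p = 2.72e-05) and SLC7A1 by 0.29 (SE 0.04, edgeR adjusted p = 2.54e-06). SLC7A4, under the filter, had 29 counts in P1 and 3 in P5, a ratio of between 2.87 and 47.5 (95% counting interval). Outside the members SLC1A3 rose by 1.88 on the log2 scale (SE 0.22), from 0.36 to 0.39 FPKM in P1 to 1.12 to 1.23 in P5, a rise that limma on log2(FPKM + 1) did not call.

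Within pairs of close relatives the balance shifted between groups, on the FPKM scale. SLC7A5 made up 43.5% to 47.3% of SLC7A5 plus SLC7A8 in hiPSCs, 71.3% to 79.2% in organoids and at least 99.5% in iMGCs. SLC7A1 made up 21.8% to 26.5% of SLC7A1 plus SLC7A3 in hiPSCs, 93.1% to 94.0% in D150-ROs and at least 99.8% in iMGCs. SLC38A1 made up 62.8% to 63.5% of SLC38A1 plus SLC38A2 in D150-ROs and 15.0% to 16.2% in iMGCs.

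The glial glutamine carriers shifted by passage. SLC38A3 made up 40.5% to 46.0% of SLC38A3 plus SLC38A5 in D150-ROs, 18.8% to 25.2% in P1 and 71.0% to 80.7% in P5 iMGCs. In P5 iMGCs both were low, SLC38A3 at 1.47 to 1.92 FPKM and SLC38A5 at 0.46 to 0.60. Of the pair, only the fall of SLC38A5 was called between the passages. At the level of families, SLC38 summed to between 382 and 407 FPKM in P1 iMGCs, of which SLC38A2 held 71.8% to 72.8%, and SLC7 to between 208 and 214, of which SLC7A5 held 68.9% to 70.7%. SLC6 summed to between 191 and 207 FPKM in D150-ROs and between 41.7 and 46.3 in iMGCs.

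**Figure D5:**
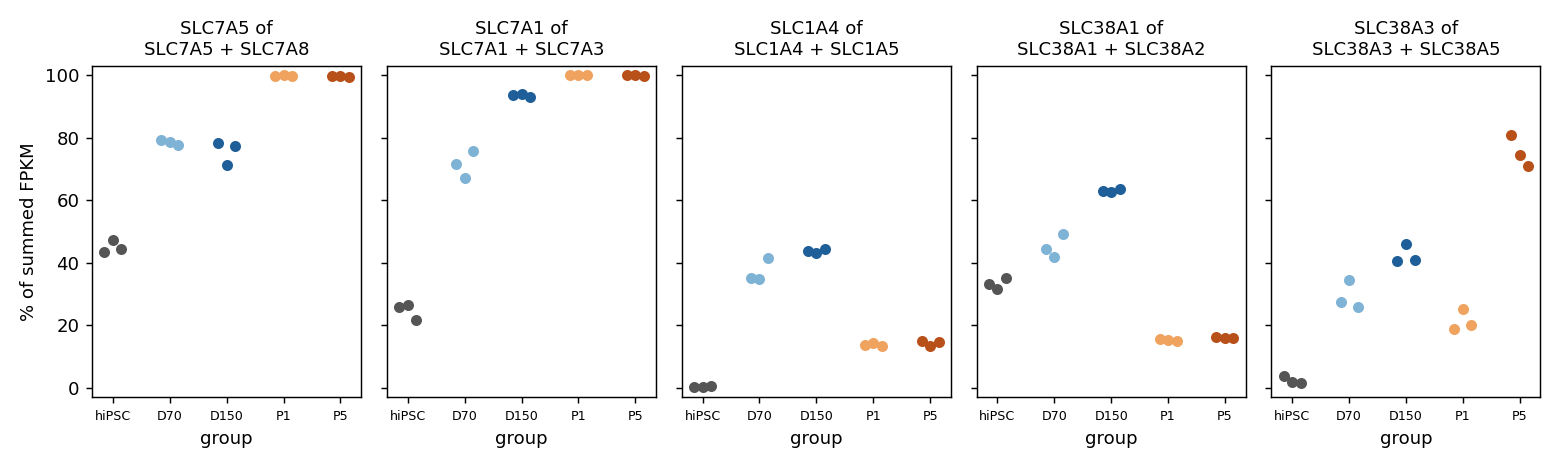
Share of the first gene in the summed FPKM of each of 5 pairs of related transporters, in percent, with 1 point per library and 5 groups per panel. SLC7A5 and SLC7A1 approach 100% in iMGCs, and SLC38A1 gives way to SLC38A2. SLC38A3 is at 71.0% to 80.7% in P5 iMGCs, where both genes of its pair are low.

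Genes around the transporters gave context, from lists of non-members counted by the same test. Of 27 genes of the ATF4 response, 14 rose and none fell by edgeR in iMGCs against D150-ROs. The list holds the factor ATF4 itself and genes it is known to raise when amino acids are short. Among all genes tested in that comparison, 20.8% rose and 23.8% fell. By DESeq2 14 of the list rose, under upper-quartile scaling 12, and with limma on log2(FPKM + 1) 8 rose and 4 fell. The genes that rose included PSAT1 and ASNS, enzymes of serine and asparagine synthesis. They rose by 2.72 (SE 0.08) and 1.06 (SE 0.08) on the log2 scale. STC2, a secreted glycoprotein, rose by 3.99 (SE 0.06). Not all of the list went this way on the FPKM scale. DDIT3 was at 19.8 to 27.0 FPKM in iMGCs and 55.4 to 63.9 in D150-ROs, though edgeR did not call it lower. In that comparison ATF4 was at 141 to 163 FPKM in iMGCs and 275 to 291 in D150-ROs (log2 change -0.22, SE 0.04). In D150-ROs against D70-ROs 1 of 27 rose and 14 fell, against 16.6% upward and 16.7% downward among all genes tested.

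Of 8 genes of taurine and creatine metabolism, 5 fell and none rose in iMGCs against D150-ROs by edgeR. By DESeq2 5 fell and by limma 6. For this list and those below, the shares of all genes tested were 20.8% upward and 23.8% downward by edgeR. CKB, creatine kinase, fell by 5.24 on the log2 scale (SE 0.16), GATM, the first enzyme of creatine synthesis, fell by 6.55 (SE 0.33), while CSAD, an enzyme of taurine synthesis, was at 4.52 to 7.99 FPKM in iMGCs and 17.6 to 21.2 in D150-ROs without reaching 2-fold on the TMM scale. Of 14 tested genes for vesicular loading and transmitter metabolism, 9 fell and 1 rose, among them the vesicular glutamate transporter SLC17A7, which fell by 9.29 (SE 0.16), and GAD1, which makes GABA and fell by 5.03 (SE 0.35). Of 19 genes of lysosomal amino acid sensing 5 rose and 2 fell, which became none up and 6 down with limma on log2(FPKM + 1), and of 7 genes of glutathione synthesis none changed by edgeR or DESeq2 and 1 fell by limma.

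The DNA before the gene starts was examined for what the members share. Promoter windows of 250 bases from RefSeq (GRCh38.p14) were found for 43 of the 56 members, and the 13 without one included SLC6A2, SLC6A3, SLC6A6, SLC6A12, SLC6A15, SLC7A2, SLC7A3, SLC7A4, SLC7A11, SLC7A13, SLC38A3 and SLC43A3. The windows were read after the expression results were known, and no test was made. The 10 members that rose in iMGCs and have a window held a median of 23.5 CG pairs (1 to 43), the 8 that fell 12.5 (2 to 30), and all 27305 promoters in the set 11. The ranges overlap, and single members ran against the medians: SLC6A11, at 0 in iMGCs, held 30 pairs, and SLC36A1 and SLC7A7, which rose, held 1 and 4. The 4 members with a window that rose in D150-ROs against D70-ROs had a median of 22.5. To show both ends of this range, not a rule, the windows of SLC7A5 and SLC7A1, which rose in iMGCs and are dense in CG, and of SLC1A7, which was at 0 there and is nearly free of it, are printed. The letters are written 5′ to 3′ on the strand of the gene, with capitals for CG.
SLC7A5 (chr16:87869508-87869757, minus strand): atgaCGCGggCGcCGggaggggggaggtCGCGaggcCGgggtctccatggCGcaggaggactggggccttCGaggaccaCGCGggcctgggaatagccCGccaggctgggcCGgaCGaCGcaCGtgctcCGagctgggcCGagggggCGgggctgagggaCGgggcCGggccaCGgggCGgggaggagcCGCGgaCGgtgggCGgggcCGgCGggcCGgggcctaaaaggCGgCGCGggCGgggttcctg
SLC7A1 (chr13:29595689-29595938, minus strand): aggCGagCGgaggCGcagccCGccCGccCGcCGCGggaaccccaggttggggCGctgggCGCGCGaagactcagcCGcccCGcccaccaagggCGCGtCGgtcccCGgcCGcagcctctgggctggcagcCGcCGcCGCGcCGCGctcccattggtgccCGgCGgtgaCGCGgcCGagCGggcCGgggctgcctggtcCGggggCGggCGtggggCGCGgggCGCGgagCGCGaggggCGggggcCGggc
SLC1A7 (chr1:53142639-53142888, minus strand): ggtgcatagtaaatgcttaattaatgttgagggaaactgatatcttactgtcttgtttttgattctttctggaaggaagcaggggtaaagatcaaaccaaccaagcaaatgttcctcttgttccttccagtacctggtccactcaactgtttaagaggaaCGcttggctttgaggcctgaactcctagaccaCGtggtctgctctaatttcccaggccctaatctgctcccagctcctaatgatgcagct

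The window of SLC7A5 holds 34 CG pairs, that of SLC7A1 43 and that of SLC1A7 2. The genes themselves lie at chr16:87830023-87869488, chr13:29509410-29595688 and chr1:53087179-53142632 (GRCh38, GENCODE 29), and each window lies outside the annotated gene. The letters TGATGNAA, the core of an amino acid response element, were on either strand in 870 windows of the set (3.19%) and in none of the 43 members' windows. The letters TAATCC, the core that the photoreceptor factor CRX is known to bind, were in 5.67% of all windows and in 1 of the 43. These counts concern the letters in these windows only.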

How the data were processed

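The members and the gene lists were chosen with earlier results of these data known. The authors deposited, for each library, estimated counts per gene (expected counts, as RSEM gives them) and FPKM values. Per the labels the tools were HISAT2, StringTie, RSEM and DESeq2, and their versions, the genome build and the strand setting are not given in the sources used here. The 19684 gene identifiers were all found in GENCODE 29 (GRCh38), which gave symbols and positions. The D150-RO columns occur in more than 1 table with identical FPKM and counts that differ by at most 0.5, and 6 columns whose names match no single sample were not used. The D150-RO and iMGC values come from separate tables, with raw counts and FPKM made per library, so they were joined by gene identifier.

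Expected counts (8.21% to 10.1% of values per library were not whole) were rounded and tested with edgeR 4.0.16 (quasi-likelihood, TMM, R 4.3.3) on the libraries of each comparison, keeping genes with at least 1 FPKM in at least 3 of them. A gene was called when its p, adjusted by the Benjamini-Hochberg method, was under 0.05 and it changed at least 2-fold. iMGC against D150-RO used all 6 iMGC libraries. Alternatives were DESeq2 1.42.0, upper-quartile scaling, limma 3.58.1 on log2(FPKM + 1) or log2(FPKM + 0.1), no filter, a test against a 2-fold change, a fit of all 15 libraries, a replicate block, removal of a gene length trend, each passage alone, and each library left out. On simulated data with 200 genes changed 4-fold, edgeR recovered 99.5%, 99%, 100%, 100% and 100% in the 5 comparisons in the order reported. Those counts were drawn from edgeR's own fitted spread, with all other genes unchanged. The rates therefore do not cover changes near 2-fold or scaling where many genes change. Bounds for members with no count used 3 counts over the group, and 95% counting intervals are exact. Bounds and intervals cover counting error only. Members given library by library were a fixed set of transmitter and substrate carriers, plus the 5 largest non-overlapping rises and falls of each comparison, and further members are given by range. Promoter windows came from RefSeq (GRCh38.p14). The values of 1 member and of 1 marker gene are not reported here, though both enter the counts.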

Additional observations from a re-analysis of the deposited data

Results flagged for a closer look

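SLC38A7, a glutamine carrier, had 1 library apart from the others of its group on the FPKM scale. P1 iMGC replicate 2 was at 14.4 FPKM, the next of the 6 iMGC libraries was at 12.2, and the lowest was at 11.6. The gap was 0.789 of the range against a Dixon limit of 0.625. In expected counts, on which the edgeR tests rest, P1 replicates 1, 2 and 3 had 785, 770 and 789, so replicate 2 was not high there. Of 27 members examined this way in iMGCs, 1 passed, and chance puts about 1 in 20 groups past the limit.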

How the results depend on the processing

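The total counts of members called stayed within 1.5 times the reported ones under every alternative run except one: without the filter 3 members changed between P5 and P1 iMGCs in place of 1. By direction, no filter gave 12 up and 22 down for iMGCs against D150-ROs (12 and 12 reported) and 12 up and 6 down for D150-ROs against D70-ROs (9 and 3 reported). With each library left out the counts lay between 18 and 22 for D70-ROs against hiPSCs, 10 and 12 for D150-ROs against D70-ROs, 25 and 27 for D150-ROs against hiPSCs, 23 and 26 for iMGCs against D150-ROs, and 1 and 1 for P5 against P1. The replicate block gave 21, 12, 26, 24 and 1. Same-numbered libraries correlated between -0.074 and 0.337, so the numbers were not taken to pair the libraries. With the length trend removed SLC6A6 in D150-ROs against hiPSCs (-1.63) and SLC7A5 (-1.09) and SLC38A5 (1.36) in D150-ROs against D70-ROs became calls. So did SLC6A9 in D70-ROs against hiPSCs (1.04). Calls were also lost in D150-ROs against D70-ROs, where 9 of the 12 reported ones remained, without SLC6A15 (0.79) and SLC1A1 (0.86). Signs turned only in members whose reported change was under 2-fold. With the length trend removed, D70-ROs against hiPSCs gave -0.08 for SLC7A11 and -0.15 for SLC38A1. For SLC38A1 it also gave -0.13 for D150-ROs against D70-ROs and -0.38 against hiPSCs (edgeR adjusted p = 0.000878). The reported change of SLC38A1 in D150-ROs against hiPSCs was 0.65 (SE 0.08, edgeR adjusted p = 9.03e-06), so its direction there depended on the setting. With single libraries left out SLC38A1 lay between -0.06 (without D70-RO replicate 3) and 0.37 (without D70-RO replicate 2) in D70-ROs against hiPSCs. On log2(FPKM + 1) and log2(FPKM + 0.1), D150-ROs against D70-ROs gave 0.02 and 0.02 for SLC1A4 and 0.05 and 0.06 for SLC7A1, D150-ROs against hiPSCs gave 0 and 0 for SLC6A8, and iMGCs against D150-ROs gave -0.10 and -0.11 for SLC1A4 and -0.58 and -0.59 for SLC38A1. SLC38A1 in iMGCs also gave -0.06 under upper-quartile scaling and -0.06 with P5 alone. The cause was not tested. Members under 1 FPKM rest on few reads, and differences there were not detectable at this depth unless given as bounds.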
